A study of Mus musculus and synthetic RNA with 74 samples.

Results

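The genes described here encode 10 proteins that bind U6 small nuclear RNA (snRNA) or help to mature it: Lsm2, Lsm3, Lsm4, Lsm5, Lsm6, Lsm7 and Lsm8, which form 1 ring, and Sart3, Usb1 and Ssb. They were chosen by gene symbol, with no measured value in the rule, though earlier results of these data were known at the time. All 10 were present among the 20330 genes of the E2.5 table and the 21199 genes of the E3.5 table. METTL16, the m6A methyltransferase under study, methylates U6 snRNA as well as the Mat2a mRNA, and the question addressed here is how the genes of the U6 pathway were expressed in the embryos. Single embryos were sequenced by Smart-seq2, which amplifies polyadenylated RNA from a few cells without keeping the strand, so U6 snRNA itself, which has no poly(A) tail, is not measured. The E2.5 set held 31 morulae of the 16-cell stage, of which 5 were WT, 14 HET and 12 KO for Mettl16. The E3.5 set held 39 blastocysts, of which 18 were WT, 9 HET and 12 KO.

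All embryos came from superovulated HET females mated with HET males of line #2112, in which a cassette of triple-stop codons was inserted into exon 3 of Mettl16. The founders were made by Cas9 injection in B6D2F1/J zygotes and bred to C57BL/6JRj mice, so the embryos may carry DBA/2J segments, every cell of a KO embryo carries the mutation, and the HET mother supplies the oocyte. The authors assigned each genotype from reads of the WT and KO alleles in the same library.

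U6 snRNA is the catalytic RNA of the spliceosome. It is made by RNA polymerase III and ends in a run of uridines, which is bound first by the La protein (encoded by Ssb), trimmed by the exonuclease USB1 and then held by the LSM2-8 ring. SART3 brings U6 together with U4 snRNA when the spliceosome is recycled. LSM8 makes the ring nuclear, whereas LSM1 in its place gives the cytoplasmic LSM1-7 ring, which promotes decapping and decay of mRNA.

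For each gene, and for each exon and intron, the deposited embryo tables give the mean of the normalized values over the embryos of a stage, WT, HET and KO pooled, beside the authors' own genotype comparisons, which were not used. The values below are therefore the authors' means: they carry no SD and no n, no test could be made on them, and the order of neighbouring genes has no spread to be judged against. The 2 stages were normalized separately, so levels were set across them as shares of each table's total, written as CPM (share of the total scaled to 1000000). The WT share of the embryos was 16.1% at E2.5 and 46.2% at E3.5, and stage and genotype mix cannot be told apart. The targeted gene, Mettl16, had a mean normalized count of 778 at E2.5 and 669 at E3.5, KO embryos included. The stage labels were checked on markers. The summed share of 6 trophectoderm genes went from 342 to 3072 CPM, with 5 of 6 at least 2-fold higher at E3.5. The highest of them at E2.5, Tfap2c, was lower at E3.5 (224 to 68.1), and the lowest, Eomes, higher (5.26 to 159). The inner cell mass and epiblast list, of 4 genes, summed to 418 and 305, with 2 at least 2-fold higher and 1, Pou5f1, lower (-1.56). The primitive endoderm list, of 4 genes, summed to 212 and 209, with 2 higher and 1, Gata4, lower (-2.53). Of other cell types, 3 of 5 cumulus and granulosa genes were listed at E2.5, summing to 0.213 CPM, and 4 of 5 at E3.5, summing to 0.296. Ptx3, a cumulus gene, was listed in neither table. Blood genes summed to 2.13 and 0.537, and 4 oviduct and uterus genes to 20.3 and 1.19, Ovgp1 being the highest with 13.6 and 0.931.

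The RNA motif that METTL16 methylates in U6 is also the centre of the randomized RNAs the study used in vitro. It is shown with the methylated adenosine in capitals:
U6 nonamer: uacAgagaa
The motif was absent from all 61 annotated transcripts, and so from each of the 10 genes. Of all annotated gene symbols, 2401 of 55341 (4.34%) had a transcript that held it (GENCODE vM21). At so low a share, its absence from 10 genes does not set them apart. In the genomic spans of the 10 genes it occurred on the sense strand at 2 places, both intronic: in intron 3 of Lsm3 (chr6:91521264-91521272, mm10) and in intron 2 of Sart3 (chr5:113763688-113763696). The rate over the spans of all genes was not computed, so these 2 places are only listed. Because no transcript held it, the in vitro measurements say nothing of these mRNAs.

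U6 pairs with the start of the intron, so the 5′ splice sites of the genes themselves were read from the genome. All 61 introns of the longest listed transcripts began with GT and ended with AG, against 98.99% of the introns of all genes. At intron position 4, A stood in 43 of 61 introns (70.5%), close to the 70.3% of all introns. The start GTATCC or ATATCC, the letters typical of U12-type introns, was found in 2 of 61, against 0.468% of all introns. U12-type introns are removed by the minor spliceosome, in which U6atac takes the place of U6. Both sites are printed because they fall in ring genes, with the 3 last exon bases in lower case and the 6 first intron bases in capitals:
Lsm5, intron 2, chr6:56703034-56703313, minus strand: tcaGTATCC
Lsm8, intron 1, chr6:18848764-18849625, plus strand: accGTATCC
Signal per base in intron 2 of Lsm5 was 0.513% of the exon signal at E2.5 and 0.175% at E3.5, beside 0.329% and 0.231% over all introns of Lsm5. In intron 1 of Lsm8 it was 0.0493% and 0.0435%, beside 0.0486% and 0.0332%.

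As a group the genes were well expressed. In the E2.5 table their shares ran from 14.9 CPM for Usb1 to 181 for Lsm2, between the 72.5th and the 95.2nd percentile of genes listed. In the E3.5 table they ran from 16.1 for Usb1 to 236 for Lsm3, between the 70.4th and the 96.7th percentile. The 10 genes together made up 687 CPM at E2.5 and 1214 at E3.5.

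**Figure D1:**
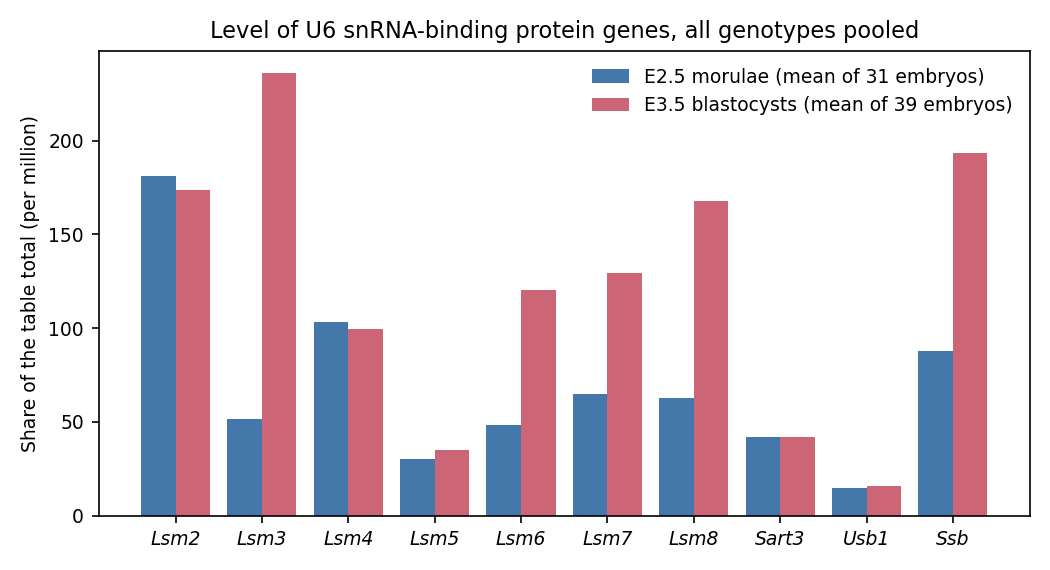
Share of the table total, in CPM, of each of the 10 genes in the E2.5 table (blue, 31 morulae pooled) and the E3.5 table (red, 39 blastocysts pooled); each bar is the authors' mean, with no error. Lsm2 was the highest at E2.5 with 181 CPM and Lsm3 at E3.5 with 236.

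Within the ring, which holds each protein in equal number, the mRNAs were far from equal. At E2.5, Lsm2 had 181 CPM, Lsm4 103, Lsm7 65.0, Lsm8 63.0, Lsm3 51.4, Lsm6 48.5 and Lsm5 30.0, a range of 6.04-fold. At E3.5, Lsm3 was first with 236, followed by Lsm2 with 174, Lsm8 with 168, Lsm7 with 129.5, Lsm6 with 120.3, Lsm4 with 99.6 and Lsm5 with 34.8, a range of 6.79-fold. Lsm5 was thus the lowest in both tables, and Lsm2 made up 33.4% of the ring's summed level at E2.5 and 18.1% at E3.5. The sum over the 7 ring genes went from 542 to 962 CPM. The order depended on the measure: by summed exon signal at E3.5, Lsm2 came first with 295 CPM, before Lsm8 (218) and Lsm3 (207).

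Levels of different genes are comparable only per length. Per kilobase of the longest transcript, Lsm2 had a level of 201 CPM at E2.5, Lsm7 139, Lsm4 109, Lsm8 84.0, Lsm3 81.4, Lsm5 59.9 and Lsm6 12.8. At E3.5 the order per kilobase was Lsm3 (374), Lsm7 (277), Lsm8 (224), Lsm2 (193), Lsm4 (106), Lsm5 (69.4) and Lsm6 (31.7). The low place of Lsm6 depends on the listed length: its last exon takes up 88.9% of the 3801 listed bases. Signal per kilobase at E2.5 was 159.6 in that exon and 2558 to 5170 in the others. The others have 99 to 114 bases, and short exons gather reads from their junctions, so these values are not strictly comparable. Copies elsewhere in the genome that reach into those exons, given below, add to the uncertainty. Lsm2 came to 119.6 and 115 per kilobase when the length of all its listed exons, of 4 transcripts, was used.

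The factors outside the ring had levels below the highest ring gene in both tables. In CPM, though not per kilobase, Ssb was above every ring gene but Lsm3 at E3.5. By summed exon signal at E3.5, Ssb (281 CPM) was above every ring gene but Lsm2 (295). Ssb, which encodes the La protein, had 87.9 CPM at E2.5 and 194 at E3.5, or 42.1 and 92.7 per kilobase. Sart3, the U4/U6 recycling factor, had 42.0 and 41.8, or 11.7 per kilobase in both tables. Usb1, the 3′ exonuclease, was the lowest of the 10 genes at both stages, with 14.9 and 16.1 CPM and 8.42 and 9.10 per kilobase.

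Between morulae and blastocysts the genes fell into those that were higher and those that stayed close to their earlier share. On the log2 scale of shares, Lsm3 was 2.20 higher at E3.5 (4.60-fold), Lsm8 1.41 (2.67-fold), Lsm6 1.31 (2.48-fold) and Ssb 1.14 (2.20-fold), and Lsm7 was just under 2-fold (0.99). The other 5 genes lay close to 0: Lsm5 at 0.21, Usb1 at 0.11, Sart3 at -0.01, Lsm4 at -0.05 and Lsm2 at -0.06. So 4 of 10 genes were at least 2-fold higher and 0 of 10 at least 2-fold lower. Over the 7599 genes with a mean of at least 100 in both tables, 24.3% were at least 2-fold higher and 16.2% at least 2-fold lower, and the median difference was 0.18, against 0.60 for the 10 genes. With 10 genes and no replicate values, the shares are a description.

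**Figure D2:**
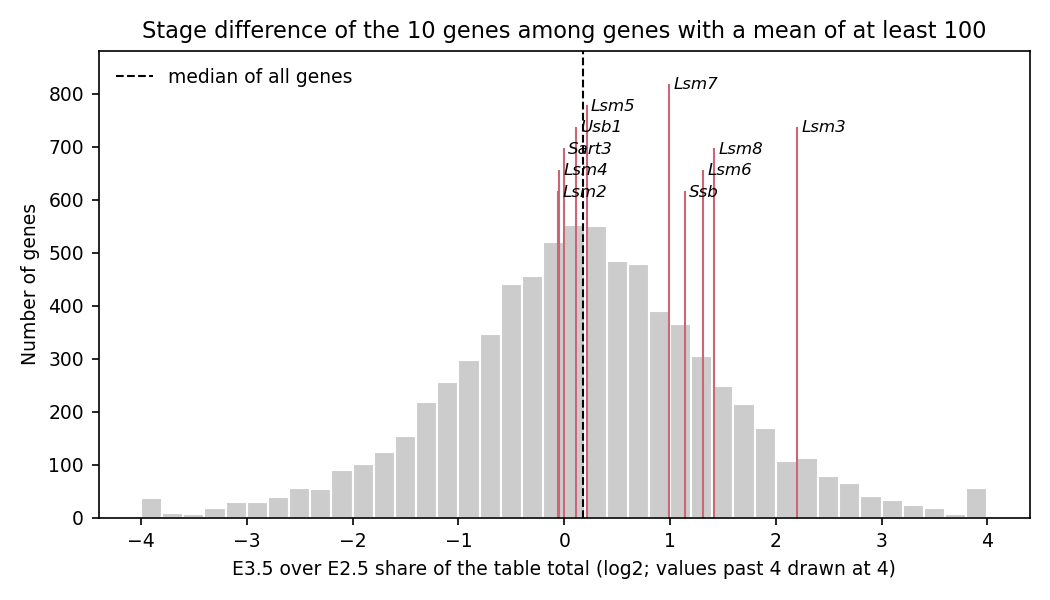
Number of genes (y axis) by the log2 ratio of the E3.5 to the E2.5 share (x axis) for the 7599 genes with a mean of at least 100 in both tables; red lines mark the 10 U6 genes, their heights serving only to place the names, and the dashed line the median of 0.18. Lsm3, at 2.20, lies above 94.2% of these genes, and Lsm2, at -0.06, above 40.9%.

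The shortest transcripts differed from the rest in this contrast. Genes with transcripts under 1 kb had a median difference of 0.77, against 0.12 from 1 to 2 kb, 0.04 from 2 to 4 kb and 0.28 from 4 kb on. Of those under 1 kb 40.2% were at least 2-fold higher, and 6 of the 10 genes (Lsm2, Lsm3, Lsm4, Lsm5, Lsm7 and Lsm8) fall in that class, 2 of which passed 2-fold. Against the median of its own length class, Lsm3 was 1.43 higher, Lsm6 1.27, Ssb 1.10, Lsm8 0.65 and Lsm7 0.23, whereas Lsm5, Lsm4 and Lsm2 were lower by values of -0.55, -0.82 and -0.83. Relative to the median of all genes, Ssb came to 0.96, under 2-fold. Trophectoderm genes moved with the same contrast (above), and in whole embryos fewer cells of a type and less RNA per cell cannot be told apart. Whether cell type, genotype mix or length had a part in the differences was not tested.

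The 150 bases before the annotated start of the 4 genes past 2-fold are printed (RefSeq, GRCm38.p6, 5′ to 3′), with GC boxes (GGGCGG) and the NRF1 motif GCGCATGC in capitals on either strand:
Lsm3, chr6:91515885-91516034, plus strand: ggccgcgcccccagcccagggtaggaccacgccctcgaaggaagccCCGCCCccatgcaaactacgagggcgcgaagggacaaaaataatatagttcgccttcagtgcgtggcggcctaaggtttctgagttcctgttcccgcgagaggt
Lsm6, chr8:78821153-78821302, minus strand: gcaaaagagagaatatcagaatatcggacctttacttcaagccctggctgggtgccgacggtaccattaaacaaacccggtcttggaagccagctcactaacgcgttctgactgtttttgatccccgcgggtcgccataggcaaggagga
Lsm8, chr6:18848485-18848634, plus strand: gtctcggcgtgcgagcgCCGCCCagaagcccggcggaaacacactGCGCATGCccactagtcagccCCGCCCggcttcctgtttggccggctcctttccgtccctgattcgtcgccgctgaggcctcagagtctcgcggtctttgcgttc
Ssb, chr2:69861412-69861561, plus strand: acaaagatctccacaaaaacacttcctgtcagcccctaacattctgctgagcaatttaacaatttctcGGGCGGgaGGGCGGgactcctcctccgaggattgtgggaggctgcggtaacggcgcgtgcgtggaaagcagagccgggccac
Promoter windows, from 250 bases before to 50 after the start, were matched for 8 of the 10 genes, in 10 windows (Lsm2 and Lsm7 have 2 starts each). Lsm4 and Sart3 had no matched window. A GC box was present in all 10 windows, against 35.6% of the 32817 windows of all genes, and in that of Lsm6 it lies after the start, outside the printed bases. The 2 windows of Lsm2 overlap, as do those of Lsm7. G or C made up 47.7% (Lsm6) to 72% (Lsm2) of the bases, against a median of 52.7% over all windows. The ratio of observed to expected CG pairs ran from 0.70 (Usb1) to 1.14 (Lsm7), against a median of 0.38. Whether base composition had a part in the GC box count was not tested. No window held TATAAA, which 13.6% of all windows did. The motif CCAAT was found for Lsm2, Lsm5 and Lsm6 (37.4% of all windows), the ETS motif CCGGAAG for Lsm5 and Usb1 (8.86%), the NRF1 motif for Lsm2 and Lsm8 (2.71%), and the YY1 motif AAGATGGC for Lsm7 (2.74%). Both strands were searched for each motif, and the matches describe letters, not binding. The 4 genes past 2-fold shared the GC box with the other genes that had a window, whereas Lsm8 alone among the 4 held the NRF1 motif.

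Along the transcripts the genes behaved differently. Over all genes, signal lay further towards the 3′ end at E3.5: over 5600 genes with at least 4 exons, signal per base on the 5′ side of the transcript's midpoint relative to the 3′ side had a median of 0.95 on the log2 scale at E2.5 and -0.12 at E3.5, and the shift was below 0 in 92.4% of them. Among exons with a signal of at least 10 in both tables, the first exon's share of all exon signal differed by a median of -0.85. The last exon's differed by 0.78. A difference in 1 exon of a U6 gene has to be read against that. Each exon's signal was compared with itself across the tables, since short exons gather reads from their junctions and are not comparable per base.

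**Figure D3:**
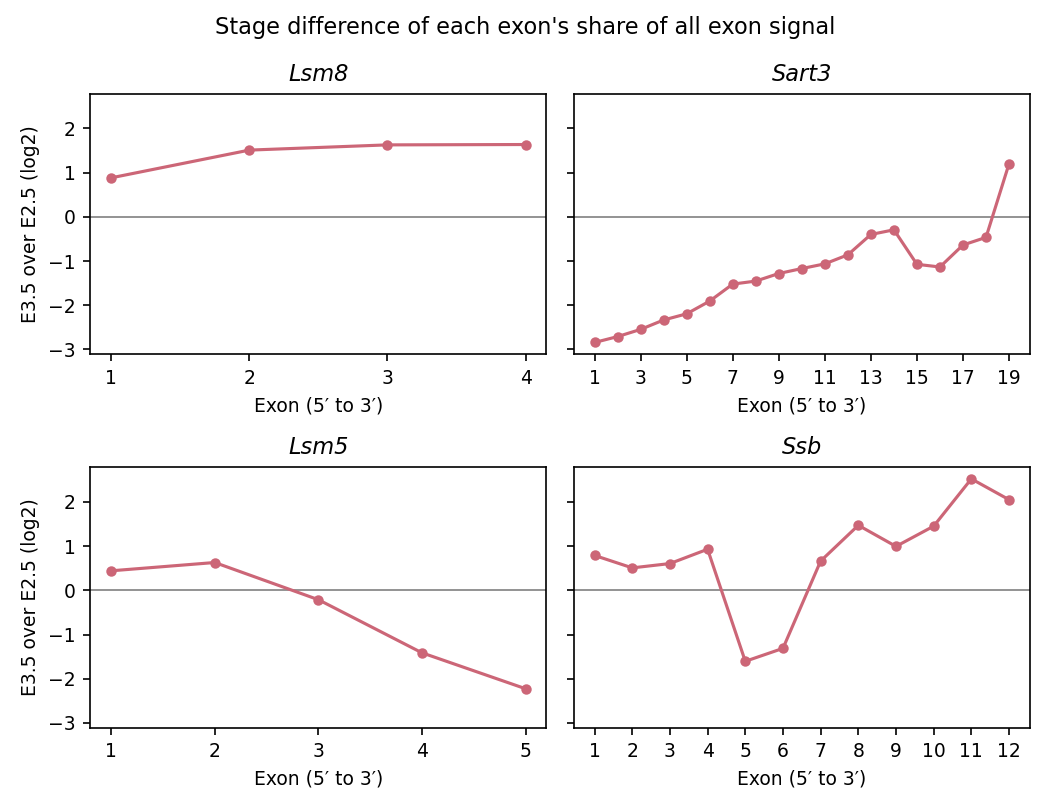
Log2 ratio of the E3.5 to the E2.5 share of all exon signal (y axis) for each exon in transcript order (x axis) of Lsm8, Sart3, Lsm5 and Ssb; points are ratios of the authors' means, with no error. Lsm8 was higher in all 4 exons (0.88 to 1.63), Sart3 went from -2.84 in exon 1 to 1.20 in exon 19, Lsm5 from 0.44 to -2.23, and Ssb dipped to -1.61 in exon 5.

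Lsm3, Lsm6, Lsm7 and Lsm8 were higher at E3.5 in every exon. The differences ran from 1.05 in exon 3 to 2.53 in exon 4 for Lsm3, from 0.42 in exon 1 to 1.88 in exon 5 for Lsm6, from 0.75 in exon 4 to 1.55 in exon 2 for Lsm7, and from 0.88 in exon 1 to 1.63 in exon 4 for Lsm8. The higher share of these 4 genes was thus present at both ends of the transcript. The last exon of Lsm3 overlaps the sense-overlapping gene AC161456.1 by 212 bases, and reads of both genes cannot be told apart there.

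Lsm4 was flat along its length, and so was the longest listed transcript of Lsm2. The exons of Lsm4 ran from -0.37 (exon 1) to 0.08 (exon 5), a range of 0.46 that 1.68% of genes undercut. Those of Lsm2 with signal of at least 10 in both tables ran from -0.16 to 0.20, a range that 0.759% of genes undercut. The median gene differed by 1.66 between its first and last exon. For Lsm2 the flat profile holds only from the first exon of that transcript (signal 152 and 114). The alternative first exon, with the higher signal (1852 and 913), differed by -0.77 against 0.20 in the last exon. From that start Lsm2 was thus less flat, though its ends differed by less than the 1.66 of the median gene.

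Sart3 and Usb1, whose gene-level shares had barely differed, were not flat. Exon 1 of Sart3 had a signal of 95.6 at E2.5 and 11.2 at E3.5, and its last exon, exon 19, had 366 and 706. On the log2 scale the first exon was lower by -2.84 and the last higher by 1.20, and 18 of 19 exons were lower, 13 of them at least 2-fold. The difference between last and first exon, 4.04, was larger than in 99.1% of 4360 genes. Only genes whose first and last exons had a signal of at least 10 in both tables were ranked. Exon 1 of Sart3 lay just above that floor at E3.5. Genes whose first exon fell below it were left out, so the rank is not one among all genes. In Usb1 the same slope was close to the median of all genes: exon 1 went from 50.9 to 23.7 (-0.85), exon 7 from 205 to 280.4 (0.70). Sart3 thus had a lower signal over most coding exons and a higher one in the exon with the 3′ end. Its summed exon signal differed by -0.36, against -0.01 for its gene-level share, so the exon values did not balance out.

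In Lsm5 the 5′ exons were higher and the 3′ exons lower. Its exons 1 to 5 had signals of 515, 442, 194, 258 and 224 at E2.5 and of 588, 574, 141, 81.5 and 40.2 at E3.5. Exons 1 and 2 were higher (0.44 and 0.63) and exons 4 and 5 lower (-1.41 and -2.23). The share of the last exon at E3.5 was 0.214 times that at E2.5, and the shift of signal towards the 5′ side, 2.45 on the log2 scale, exceeded that of 99.7% of genes. Lsm7 shifted the same way, by 0.66, more than 98.2% of genes, and its last exon differed from its first by -0.37. Exon 4, the last exon that is coding throughout, is printed with the 3 bases before the 5′ splice site in capitals:
Lsm5, exon 4, chr6:56702096-56702168, minus strand: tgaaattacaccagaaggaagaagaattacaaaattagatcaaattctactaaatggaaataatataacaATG
Of its bases 24.7% were G or C. Lsm5 has processed pseudogenes that span 96.8% of its transcript: Gm7846 (chr1:28580304-28580783), which is 98.6% identical, and Gm10074 (chr17:36225985-36226468), 97.9% identical. Lsm7 likewise has Gm10146 (chr10:78393304-78393756), identical over 453 matched bases, and Gm13182 (chr2:3550741-3551198), 97.8% identical. Reads within 1 exon cannot be assigned to the gene or its copy with certainty, so the levels and exon values of Lsm5 and Lsm7 are uncertain, and whether the copies had a part in the Lsm5 pattern was not tested. Lsm6 had 140 partial matches elsewhere in the genome, of which 5 reached into the 423 bases of its exons 1 to 4. Among these, the processed pseudogene Gm10043 (chr8:22958037-22958626) covered 391 of the 423 bases with 95.4% identity and Gm2926 (chr7:98455096-98455678) 372 with 94.9%, so the values of Lsm6, 1 of the 4 genes past 2-fold, carry the same uncertainty. Ssb had 1 match, over 6.85% of its transcript and within the last exon. No match of at least 90% identity over at least 100 bases was found for Lsm2, Lsm3, Lsm4, Lsm8, Sart3 or Usb1.

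In Ssb, 10 of 12 exons were higher at E3.5 and 2 neighbouring coding exons were lower. Exon 5 had a signal of 334 at E2.5 and 92.2 at E3.5 (-1.61), and exon 6 had 303 and 102 (-1.31). Exon 4, just upstream, went from 839 to 1342 (0.93) and exon 7, just downstream, from 236 to 313 (0.66). The largest difference was in exon 11, from 351 to 1694 (2.52). The range over the exons, 4.13, exceeded that of 96.4% of 5402 genes, counting only exons with a signal of at least 10 in both tables. Exons below that signal were left out of the ranges, so the rank is not one among all genes. The 2 exons are printed with their 3 last bases in capitals:
Ssb, exon 5, chr2:69867272-69867379, plus strand: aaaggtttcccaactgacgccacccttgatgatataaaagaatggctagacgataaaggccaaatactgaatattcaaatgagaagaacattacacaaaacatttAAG
Ssb, exon 6, chr2:69867452-69867552, plus strand: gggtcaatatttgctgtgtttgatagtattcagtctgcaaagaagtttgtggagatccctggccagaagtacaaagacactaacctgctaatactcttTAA
They are 108 and 101 bases long, with 35.2% and 39.6% G or C, and the intron between them has 72 bases. The last exon of Ssb overlaps Mettl5 and Gm13625 on the opposite strand, and since the libraries keep no strand, its signal cannot be assigned to Ssb alone.

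Relative to exon signal, intron signal was low in most of the genes. The percentage divides by exon signal per base, which reads from junctions raise in short exons. Ranks of genes with short exons, such as those of the ring, are therefore uncertain, and the part of exon length was not tested. Over introns that overlap no listed exon, signal per base was taken as a percentage of exon signal per base. It was set beside that of 6117 genes with a summed exon signal of at least 300 in both tables. Their median was 0.538% at E2.5 and 0.998% at E3.5, and 8 of 10 genes lay below it at E2.5 and 9 of 10 at E3.5. Lsm8 was the lowest, with 0.0486% and 0.0332%, and 3.04% and 0.932% of the 6117 genes had less. Lsm3 had 0.162% and 0.156%, Lsm4 0.203% and 0.293%, Lsm5 0.329% and 0.231%, and Usb1 0.439% and 0.469%. The percentages of Lsm6 (0.407% and 0.225%) and Lsm7 (0.941% and 0.467%) were lower at E3.5, and those of Lsm2 (0.140% and 0.232%) and Ssb (0.274% and 0.571%) higher. With all introns counted, Lsm2 (4.63% and 3.87%) and Lsm6 (3.28% and 1.95%) stood far higher, because exons of their other transcripts lie in those introns.

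**Figure D4:**
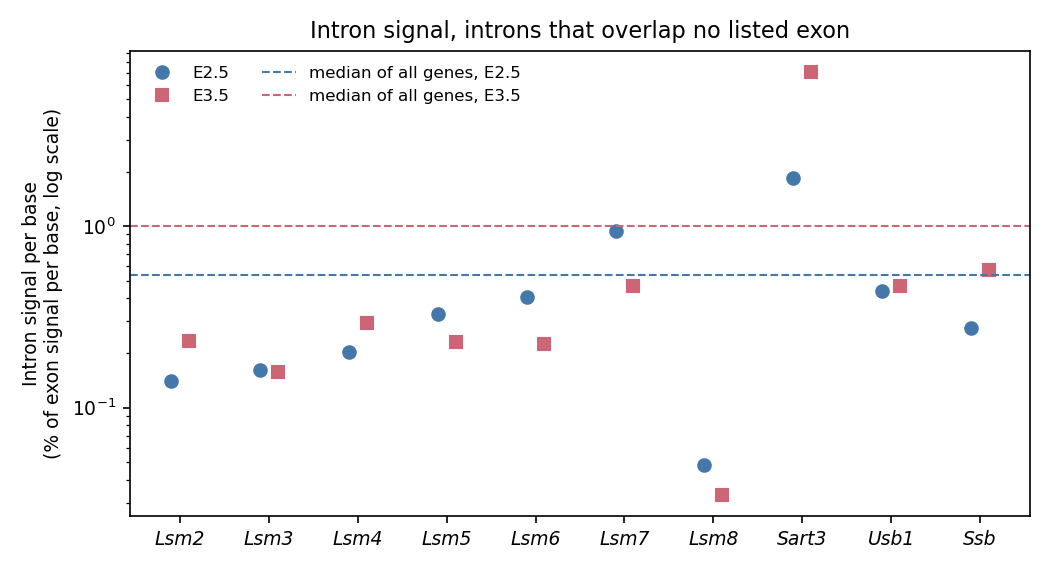
Intron signal per base as a percentage of exon signal per base (y axis, log scale) for each of the 10 genes, over introns that overlap no listed exon. Blue circles are E2.5 and red squares E3.5. Dashed lines are the medians, 0.538% and 0.998%, of 6117 genes with a summed exon signal of at least 300 in both tables. Sart3 stands above both lines, with 1.84% at E2.5 and 7.08% at E3.5.

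The percentage of Sart3, 1.84% at E2.5 and 7.08% at E3.5, exceeded that of 86.0% and 95.9% of the 6117 genes and came mostly from 1 intron. Intron 1 (chr5:113764200-113771320, minus strand) had 30.4 per kilobase at E2.5 and 81.3 at E3.5, which is 5.71% and 23.3% of the exon signal per base. None of the other 17 introns of Sart3 passed 1.48% at E2.5 or 2.80% at E3.5. Intron 1 contains the processed pseudogene Gm3511 on the opposite strand (chr5:113767123-113767326), and the part of its reads in the intron signal was not tested. In Ssb, intron 1 went from 23.7 to 69.3 per kilobase and intron 8 from 8.10 to 68.7, while intron 5, the 72 bases between the 2 lower exons, went from 42.7 to 23.3. The highest intron of Lsm7 was intron 1 (107 and 113), and that of Lsm4 the 77-base intron 3 (109 and 81.4). Across the 61 introns, the median percentage was 0.199% at E2.5 for the 43 introns with A at position 4, 0.548% for the 5 with C, 0.580% for the 6 with G and 0.241% for the 7 with T. At E3.5 these medians were 0.258%, 0.493%, 0.409% and 0.178%. The groups are small and hold introns of the same genes, and no test was made.

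The other genes of the pathway differed in both directions. Among 7 other Lsm family genes, 3 were at least 2-fold higher at E3.5 and 1 at least 2-fold lower (median 0.68), from Lsm12, the highest at E2.5 with 345 CPM and 83.8 at E3.5, to Lsm14b, the lowest with 1.87 and 2.86. Lsm1, which takes the place of Lsm8 in the cytoplasmic ring and is named here after its values were seen, had 42.0 and 58.2 CPM, beside 63.0 and 168 for Lsm8. Of 8 partners of the cytoplasmic ring, 2 were at least 2-fold higher and 0 lower (median 0.54), with Edc4 the highest at E2.5 (45.1, then 26.0) and Dcp1b the lowest (0.168 and 0.218).

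Other factors that act on U6 snRNA differed less. Of 6 genes (Mettl16 among them), 1 was at least 2-fold higher and 0 lower (median 0.25); it was also the highest, Larp7, a La-related protein, with 70.4 and 188 CPM, and Mepce, which caps the 7SK RNA, was the lowest at E2.5 with 15.1 and 25.04. Of 10 genes for transcription of U6 by RNA polymerase III, 2 were higher and 2 lower (median -0.45). Zfp143, the transcription factor, was the highest at E2.5 (95.3, then 28.5), and Brf2, a subunit of the polymerase III initiation factor used at U6 genes, the lowest (10.4 and 7.42). The 7 genes of the Sm ring, which most other spliceosomal snRNAs carry, had a median of 0.40, with 2 higher and 0 lower, from Snrpb (715 and 473 CPM) to Snrpd3 (63.8 and 72.8). The 24.3% and 16.2% of all genes given above are the shares to set beside these counts, and no list was tested against another.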

How the data were processed

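RNA of single embryos was amplified by Smart-seq2 and sequenced in pairs. Per the labels and the study's methods, the authors quantified RefSeq transcripts (mm10) with Salmon 0.7.2, and normalized with DESeq2 1.18.1 in R 3.4.3. Reads were aligned to the genome with STAR, and exons and introns were counted with featureCounts. The versions of both are not given in the sources used here. The deposited signal used here is the mean normalized count per gene, exon or intron over all embryos of a stage. The tables otherwise hold the authors' genotype fold changes and p-values, which were not used, so the planned genotype test was not made. The in vitro table was not used either. The tables give no depth per embryo, and the study's list of libraries was not used for depth.

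Shares of the table total, levels per kilobase, log2 stage differences and exon and intron ratios were computed with pandas 2.3.3 and numpy 2.4.6. Genes with a mean of at least 100 in both tables formed the background of the stage differences, and 2-fold was the counted size. Exon profiles used genes with at least 4 exons and a summed signal of at least 300. Medians and ranks of single exons, and of differences and ranges between exons, left out exons with a signal below 10 in either table. Intron percentages were ranked among genes with a summed exon signal of at least 300 in both tables. Per-gene exon and intron ratios were tested on simulated data. Exon numbers run in transcript order. Sequences came from GRCm38.p6, whose chromosomes are those of mm10. Genome copies were searched with blastn 2.17.0 (identity of at least 90% over at least 100 bases). Members and gene lists were chosen with earlier results of these data known. The named-gene rule was all 10 genes, and of each pathway list the highest and the lowest by mean level at E2.5. Marker genes outside that rule were named after their values were seen. Lists were described by counts and medians, with no test.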

Additional observations from a re-analysis of the deposited data

How the results depend on the processing

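The count of genes at least 2-fold higher, 4, was 3 after scaling to the median ratio of genes, where Ssb dropped out, 5 with summed exon signal, and 4 in the other settings run. With the 5′ side of the longest transcript alone, those 4 were not the same genes: Ssb came to 0.93 and Lsm7 to 1.703. The count at least 2-fold lower, 0, became 1 with the exon signal of the 3′ side of the longest transcript alone (Lsm5, -2.60) and 1 with that of the 5′ side alone (Sart3, -1.16); both settings were chosen after seeing the data. The median intron percentage of the 10 genes, 0.425% at E2.5 and 0.468% at E3.5 over all introns, was 0.302% and 0.262% without introns that overlap an exon, which turns the order of the stages, and 0.204% and 0.263% from medians over introns and exons. Of 186 values recomputed, 147 moved by less than 1.5-fold and 39 by more, and no difference past 2-fold changed sign. The tally is no measure of robustness, since part of the values could hardly move. Scaling to the median ratio and leaving out the highest genes shift every gene's difference by the same amount. Percentiles near the top of the scale have little room. For genes with 1 listed transcript, the settings on exon length and on introns free of exons returned the same value. The difference by length class was also added after seeing the data. No paired analysis was possible because no result came from a test on samples. The genotype and the m6A-IP alternatives, those on normalization, filter, pseudocount, block and left-out libraries, were not run, since the embryo tables give pooled means and no transcript held the nonamer. Without values per embryo, no difference can be set against the spread between embryos.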

Other observations

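Lsm2 is listed with alternative first exons, 232 and 238 bases long, whose signals were unequal. The upstream one (chr17:34981854-34982085) had a signal of 1852 at E2.5 and 913 at E3.5, and the downstream one (chr17:34982130-34982367) had 152 and 114, while the 29-base exon 3 had 4.69 and 9.72. The upstream exon thus had the higher signal in both tables.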
